A study of Mus musculus with 17 samples.

Results

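Adding a deletion of the boundary element to the duplication Dup-L at the Sox9-Kcnj locus of mouse chromosome 11 was described by comparing 4 limb bud libraries of Dup-L∆Bor with 2 of Dup-L, 6 of the 15 libraries with a column in the deposited gene table. The 2 groups also differed in limb type, as read from Pitx1, and in the range of their library numbers. The difference between a pair of wild-type (WT) libraries with the same 2 differences, WT 3 (high Pitx1, later numbers) minus WT 2 (low Pitx1, earlier numbers), was therefore subtracted from each gene, and the text describes what was left. All 8 libraries were polyA RNA of E12.5 limb buds.

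Dup-L carries a duplication at the locus, Dup-L∆Bor the duplication with a boundary deletion, and WT neither variant. The labels give the zygosity of neither mutant group. They name no separate embryos and no limb, so p-values measure the spread between these libraries, which may be technical. The Dup-L∆Bor columns carry another genotype string, which joins Sox9, a duplication, LacZ and a deletion. Their replicate names run from R2 to R5 where the labels count from 1 to 4, so they were matched as a group only and keep the column names here. The labels do not explain the LacZ in that string. Headers R4 and R5 share 1 library number. Their counts nevertheless differed by a mean chi-square per gene of 25.5, against 5.93 to 33.1 for the other pairs of the group and 6.48 for the Dup-L pair, and both were kept.

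Mammalian chromosomes are folded into domains within which enhancers and promoters meet, and boundaries between domains limit contact across them. Sox9, a transcription factor required for cartilage, lies in 1 domain with its limb enhancers. The neighbouring domain holds the genes of 2 potassium channels of the inward-rectifier family, Kcnj2 and Kcnj16. Moving or removing the boundary can expose the Kcnj genes to the regulatory landscape of Sox9, and Kcnj2 can then be expressed in limb buds in the manner of Sox9. Pitx1 and Tbx4 are made mainly in the hindlimb and Tbx5 in the forelimb.

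Total counts were 36088009 and 36510338 in Dup-L, 37126548 to 48937748 in Dup-L∆Bor, and 53371442 and 53711742 in WT 2 and WT 3. The limb mesenchyme gene Prrx1 lay between 471 and 916 CPM (counts scaled to library size) in these 8 libraries, and Hoxd13, a gene of the distal limb, between 529 and 790 CPM. All 8 had little Xist (1.23 CPM or less) and clear Eif2s3y, a gene of the Y chromosome (36.8 to 95.1 CPM). In bulk tissue, fewer cells of a type and less RNA per cell cannot be told apart.

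Kcnj2 was higher in every Dup-L∆Bor library than in both Dup-L libraries. Its level was 25.3 and 33.4 CPM in Dup-L against 69.4, 55.2, 58.4 and 45.7 CPM in Dup-L∆Bor R2 to R5. It was 21.7 and 22.2 CPM in WT 2 and WT 3, so the subtracted pair was almost level for this gene. The groups did not overlap, as was the case for 64.7% of all genes tested, and their means were 29.3 ± 5.75 CPM (SD, n = 2) and 57.2 ± 9.77 CPM (SD, n = 4). As measured, Kcnj2 rose, with a log2 difference of 0.96 (SE 0.19) and an adjusted p of 0.00175 in edgeR's quasi-likelihood test. The WT pair differed by 0.04 (log2), which left 0.93 (SE 0.36, 95% interval 0.14 to 1.71). That remainder did not pass the threshold of 0.05 (adjusted p = 0.154), its error being larger because the difference of 2 single libraries enters it. It stayed positive, between 0.74 and 1.14, whichever Dup-L or Dup-L∆Bor library was left out.

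**Figure D1:**
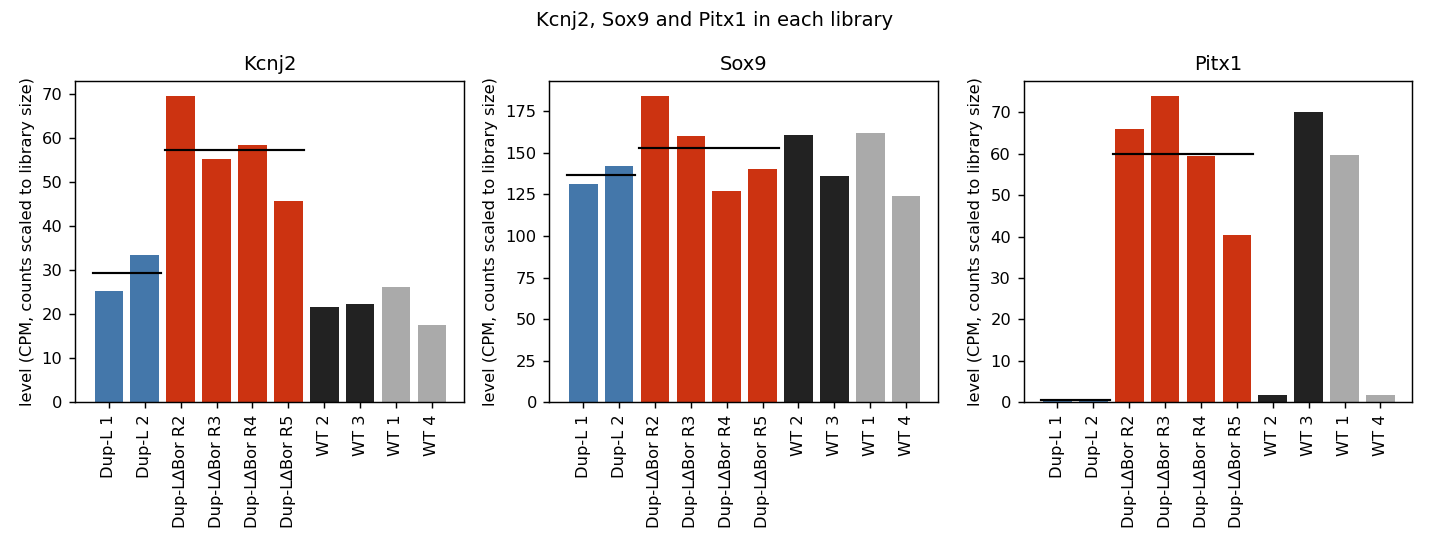
Levels of Kcnj2, Sox9 and Pitx1 (vertical axis, CPM) in each library, with bars for Dup-L (blue), Dup-L∆Bor (red), the subtracted WT 2 and WT 3 (black) and the other WT libraries (grey). Horizontal lines are group means. Kcnj2 lies between 45.7 and 69.4 CPM in Dup-L∆Bor, above both Dup-L libraries, while Pitx1 separates Dup-L and WT 2 from Dup-L∆Bor and WT 3.

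The promoter of Kcnj2 is shown because the results turn on this gene. It spans chr11:111065914-111066213 of GRCm38.p6, plus strand, from 250 bases before the RefSeq start to 50 after it. Capitals mark ACGTG, the core of the hypoxia response element, on either strand, and here the letters of both strands overlap in 1 palindrome. Of 11709 RefSeq promoter windows of this length, 24.4% held these letters.
Kcnj2: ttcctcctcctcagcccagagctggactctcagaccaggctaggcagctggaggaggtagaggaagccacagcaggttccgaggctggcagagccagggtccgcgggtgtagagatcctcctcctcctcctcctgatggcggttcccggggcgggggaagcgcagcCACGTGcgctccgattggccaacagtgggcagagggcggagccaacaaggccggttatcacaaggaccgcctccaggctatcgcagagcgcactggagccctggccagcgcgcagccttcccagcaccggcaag

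Sox9 itself differed little between the groups. Its level was 131 and 142 CPM in Dup-L against 184, 160, 127 and 140 CPM in Dup-L∆Bor, and the groups overlapped. The remainder after subtraction was 0.40 (log2, SE 0.25, adjusted p = 0.338), with a 95% interval of -0.14 to 0.94. On the authors' scale per transcript length, Kcnj2 had a mean level of 4.70 FPKM in Dup-L and 9.08 FPKM in Dup-L∆Bor, against 28.8 and 31.9 FPKM for Sox9. Kcnj16 had between 0 and 3 counts in every library and was not tested.

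The other transcripts of the locus gave no call after subtraction. The long noncoding RNA 2610035D17Rik had the second largest remainder of the locus list, 0.76 (log2, SE 0.24, adjusted p = 0.105). Its 2 groups overlapped as measured (18.9 to 22.4 against 21.9 to 22.8 CPM), and WT 3 (10.8 CPM) was below WT 2 (17 CPM). BC006965, a noncoding transcript, fell as measured, from 4.69 and 7.12 CPM to between 2.61 and 3.34 CPM (log2 -0.99, adjusted p = 0.00322). WT 2 had 9.81 CPM and WT 3 had 3.24 CPM, and its remainder was positive at 0.61 (SE 0.43, adjusted p = 0.402). Map2k6, a kinase of the stress response, and Slc39a11, a zinc transporter, had remainders of 0.11 (SE 0.18) and -0.29 (SE 0.20). Of 22 genes flanking the locus on chromosome 11, 5 rose and 2 fell as measured, beside 24.6% and 24.7% of all genes. After subtraction 0 passed, beside 1.39%. The largest remainder among them was that of Cog1, a subunit of a Golgi complex, which went from 0.463 and 0.271 CPM to between 1.54 and 2.30 CPM (log2 2.28 after subtraction, SE 0.63, adjusted p = 0.0817). Of 13 inward-rectifier channel genes, 11 were tested. As measured 1 of them rose, beside 24.6% of all genes, and 0 passed after subtraction, beside 1.39%.

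The remainder of Kcnj2 was set against the boundary deletion on its own, heterozygous ∆Bor (2 libraries) minus WT 1, which share high Pitx1 and the earlier library numbers. These libraries differed in sex, with 2260 CPM of Xist in WT 1 and 0.873 and 0.835 CPM in heterozygous ∆Bor. Kcnj2 was 26.2 CPM in WT 1 and 44.5 and 30.4 CPM in heterozygous ∆Bor, a difference of 0.52 (log2). The difference between the 2 effects was 0.41 (SE 0.44, 95% interval -0.56 to 1.38, adjusted p = 0.563), so neither an equal effect nor one larger in the duplication could be told at this spread. Across all genes, 1661 of 17655 (9.41%) passed the test of this difference, 1021 on the higher side (5.78%) and 640 on the lower (3.63%).

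Pitx1, which was used to set up the comparison, is given as a description. Its level was 0.518 and 0.677 CPM in Dup-L against 40.5 to 73.9 CPM in Dup-L∆Bor, with 1.83 CPM in WT 2 and 70.1 CPM in WT 3. The log2 difference of 6.64 became 1.39 after the WT difference of 5.26 was taken away (95% interval -1.07 to 3.84).

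The other limb type genes lost their calls. Of 10 listed genes, 7 rose and 2 fell as measured, beside 24.6% and 24.7% of all genes. After subtraction 0 passed, beside 1.39% of all genes, so the 0 is not particular to this list. Pitx1 is 1 of the 7, and its rise was fixed by the choice of the comparison, so these counts and the median are a description. Their median went from 1.36 to 0.38 (log2), beside 0.01 and 0.03 over all 17655 genes tested. Tbx4, a hindlimb transcription factor, went from 19.6 and 18.8 CPM to between 93.0 and 109 CPM, a rise of 2.40 (log2), of which 0.65 was left (SE 0.17, adjusted p = 0.0789). Tbx5, its forelimb counterpart, fell from 186 and 184 CPM to between 86.2 and 113 CPM (log2 -0.91), with 0.28 left (SE 0.19, adjusted p = 0.388). Isl1, an early hindlimb factor, had a remainder of -0.45 (SE 0.50). The posterior HoxC genes Hoxc9, Hoxc10, Hoxc11 and Hoxc12, which mark the hindlimb, each rose as measured, by 0.97 to 1.64 (log2), and Hoxc13 fell by 0.82. Their remainders ran from -0.53 for Hoxc13 to 0.91 for Hoxc12. The loss of calls depended on the WT pair. WT 1 minus WT 2 and WT 3 minus WT 4 are also high minus low in Pitx1. Each of these pairs lies within a single range of library numbers, so they match the difference in limb type only. With these pairs, Tbx4 passed in edgeR (1.08 and 0.75, adjusted p = 0.00345 and 0.0227). Hoxc13 passed on the lower side (-1.38 and -1.39, adjusted p = 0.0184 and 0.0323).

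Before subtraction, 8698 genes passed (49.3% of 17655), 4346 of them higher (24.6%) and 4352 lower (24.7%). After subtraction 246 passed (1.39%), 186 higher (1.05%) and 60 lower (0.34%), and 4237 had an unadjusted p under 0.05. Of the 246, 223 had been called in the same direction as measured, 20 had not been called, and 3 had been called in the opposite direction. Of the 8698 calls as measured, 2320 had less than 0.25 (log2) left in either direction, and 825 had changed sign.

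Which of the 2 differences made a call was counted too. In 178 of the 246 genes the difference between Dup-L∆Bor and Dup-L was larger than that of the WT pair, and in 68 the WT pair's was larger. Other WT pairs gave other counts, 3501 (19.8%) for WT 1 minus WT 2 and 1935 (11%) for WT 3 minus WT 4. Both pairs lie within a single range of library numbers. WT 4 minus WT 2, which crosses the ranges but is low in Pitx1 on both sides, gave 616 (3.49%). The count depended on single libraries: 30 genes passed without Dup-L 1, 37 without Dup-L 2, and 100, 47, 99 and 695 without Dup-L∆Bor R2, R3, R4 and R5. A set of 23 of the 246 genes (9.35%), 7 higher and 16 lower, passed whichever of these 6 libraries was left out. Among the 23, the Dup-L∆Bor difference was the larger in 14, of which 13 were lower, and the WT pair's in 9, of which 6 were higher.

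**Figure D2:**
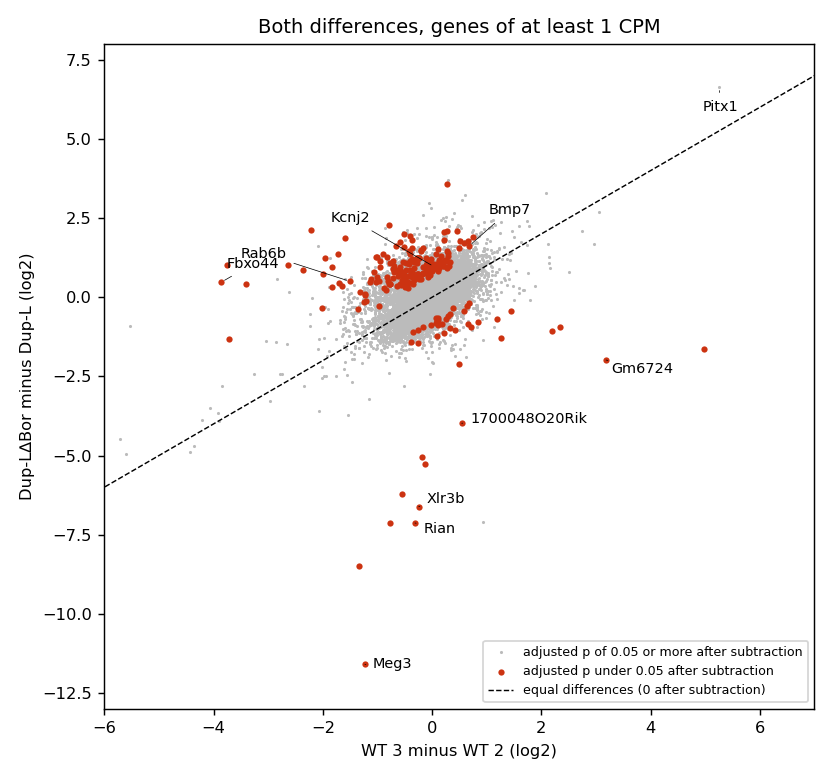
Each gene of at least 1 CPM by its WT 3 minus WT 2 difference (horizontal axis, log2) and its Dup-L∆Bor minus Dup-L difference (vertical axis, log2), with genes that passed after subtraction in red. On the dashed line both are equal. Meg3 and Rian lie far below the line, while Fbxo44 and Gm6724 are off the line mainly by the WT pair.

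GC content moved with the remainder. Among 13274 genes that matched an annotation and had a mean of at least 1 CPM over the 8 libraries, GC content and transcript length accounted for 42% of the variance of the log2 difference as measured, 4.4% in the WT pair, and 34.6% after subtraction. From the lowest to the highest of 5 equal bins of GC content, the median remainder went from -0.40 to 0.51 (log2). When offsets for GC content and length were used, 136 genes passed (0.77%), 87 higher (0.493%) and 49 lower (0.278%), and 105 of the 246 were among them. The part of GC content in single results was not tested, and the value with offsets is given below where it ends the call of a gene that is described with its values.

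The largest decreases were in the maternally expressed noncoding RNAs of the Dlk1-Dio3 imprinted cluster on chromosome 12. This cluster yields Meg3, Rian and Mirg, a run of noncoding transcripts that host small nucleolar RNAs and microRNAs, from the maternal chromosome, and Dlk1, Rtl1 and Dio3 from the paternal one. Meg3 had 547 and 555 CPM in Dup-L against 0.146, 0.187, 0.102 and 0.292 CPM in Dup-L∆Bor R2 to R5, which is 5 to 11 counts per library. WT 2 had 695 CPM and WT 3 had 296 CPM. The 2 groups lay far apart, with no library in between. Meg3 fell by 10.37 on the log2 scale after subtraction (SE 0.51, adjusted p = 3.91e-06).

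Rian went from 628 and 667 CPM to between 2.92 and 5.61 CPM, and its remainder was -6.82 (log2, SE 0.36, adjusted p = 3.91e-06). Mirg went from 19.2 and 21.1 CPM to between 0.159 and 0.346 CPM (remainder -5.69, SE 0.34). In WT 2 and WT 3 Rian had 518 and 417 CPM and Mirg 25.2 and 17.3 CPM, so both hosts were low in the 4 Dup-L∆Bor libraries alone among these 8. AF357359, which RefSeq places between Meg3 and Mirg, had 29.8 and 33.9 CPM in Dup-L against 0 to 0.230 CPM in Dup-L∆Bor (remainder -7.15, SE 0.64). AF357425_gene, named like a small nucleolar RNA that RefSeq places on chromosome 12, went from 8.64 and 9.91 CPM to between 0.0407 and 0.0835 CPM (remainder -6.34, SE 0.50). DQ267100 had no count in Dup-L∆Bor and a mean of 0.693 CPM in Dup-L, at least 9.79-fold lower against a floor of 3 counts per library, which covers counting error only.

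From Meg3 to Mirg the RefSeq order of genes holds 62 features of the table, 9 of them with enough counts to be tested. Of these, 8 fell as measured and after subtraction, beside 24.7% and 0.34% of all genes. Meg3 and Mirg, which set the ends of the stretch, are themselves among the 8, so the counts are a description. No Dup-L∆Bor library had a count for 3 of the 9, which met the count filter through other groups. With GC and length offsets 1 of the 8, AF357426, lost its call (adjusted p = 0.0479 without and 0.0599 with them). The median remainder of the 9 was -6.82 (log2). The ninth, Rtl1, a retrotransposon-derived gene expressed from the paternal chromosome, had a remainder of 0.05 (SE 0.65, adjusted p = 0.974). Dlk1, a Notch-like transmembrane protein of the same cluster, rose as measured, from 61.4 and 53.5 CPM to between 138 and 266 CPM (log2 1.75, adjusted p = 0.00456). Its remainder of 1.68 (SE 0.65) did not pass (adjusted p = 0.171), and the 2 groups did not overlap.

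The Meg3 promoter is shown because this gene gave the largest decrease. It spans chr12:109540746-109541045 of GRCm38.p6, plus strand, and holds none of the ACGTG letters on either strand.
Meg3: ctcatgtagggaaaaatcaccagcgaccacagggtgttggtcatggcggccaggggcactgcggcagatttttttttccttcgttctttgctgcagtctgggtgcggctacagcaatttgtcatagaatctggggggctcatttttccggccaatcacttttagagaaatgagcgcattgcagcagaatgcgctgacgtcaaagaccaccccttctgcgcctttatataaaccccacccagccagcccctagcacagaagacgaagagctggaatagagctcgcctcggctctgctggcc

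A family on the X chromosome fell alongside. Xlr3a, Xlr3b, Xlr3c and the related Xlr4b, near-identical lymphocyte-regulated genes of which Xlr3b is imprinted in the brain, are neighbours, and reads may be shared among the copies. Xlr3b had 26.9 and 29.5 CPM in Dup-L against 0.212 to 0.400 CPM in Dup-L∆Bor. WT 2 and WT 3 held 3.86 and 3.26 CPM, between the 2 groups, and WT 1 and WT 4 held 13.9 and 23.3 CPM. The remainder was -6.37 (log2, SE 0.40, adjusted p = 4.12e-06). The remainders of Xlr3a and Xlr3c were -5.14 (SE 0.40) and -4.87 (SE 0.39), and Xlr4b, with at most 0.0209 CPM in Dup-L∆Bor, also fell (adjusted p = 0.0188). Of 11 features from Xlr3a to Xlr3c, 7 were tested, 6 fell as measured and 4 fell after subtraction, beside 24.7% and 0.34% of all genes. Xlr3a and Xlr3c, which set the ends of the stretch, are themselves among these calls, so the counts are a description. In 1 of the 7, Xlr5a, no Dup-L∆Bor library had a count, and it met the count filter through other groups. F8a, a factor VIII-associated gene within the stretch, had a remainder of -0.07 (adjusted p = 0.922).

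The 3 further genes given here fell, and each was lower in every Dup-L∆Bor library than in Dup-L and the WT pair. 1700048O20Rik on chromosome 9 went from a mean of 13.3 ± 1.23 CPM (SD, n = 2) to between 0.668 and 1.01 CPM, with 7.64 and 11.1 CPM in WT 2 and WT 3 (remainder -4.52, SE 0.41, adjusted p = 0.000125). C130046K22Rik on chromosome 11 went from 2.13 and 2.44 CPM to between 0.459 and 0.591 CPM, with 3.86 and 5.41 CPM in WT 2 and WT 3 (remainder -2.61, SE 0.33). Slfn9, a Schlafen family gene of chromosome 11, went from 55.8 and 54.6 CPM to between 22.2 and 24.8 CPM, with 41.3 and 44.0 CPM in the WT pair, a remainder of -1.30 (SE 0.17, adjusted p = 0.00535). Each of these 3 genes fell whichever library was left out.

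Increases of that stability were few. Miat, a long noncoding RNA, had 89.3 and 87.4 CPM in Dup-L against 157 to 183 CPM in Dup-L∆Bor, against 101 CPM in WT 2 and 61.7 CPM in WT 3. It rose by 0.91 (log2) as measured and by 1.62 after subtraction (SE 0.23, adjusted p = 0.0083). It was the only one of the 7 higher genes of the 23 in which the difference between the mutant groups was larger than that of the WT pair.

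**Figure D3:**
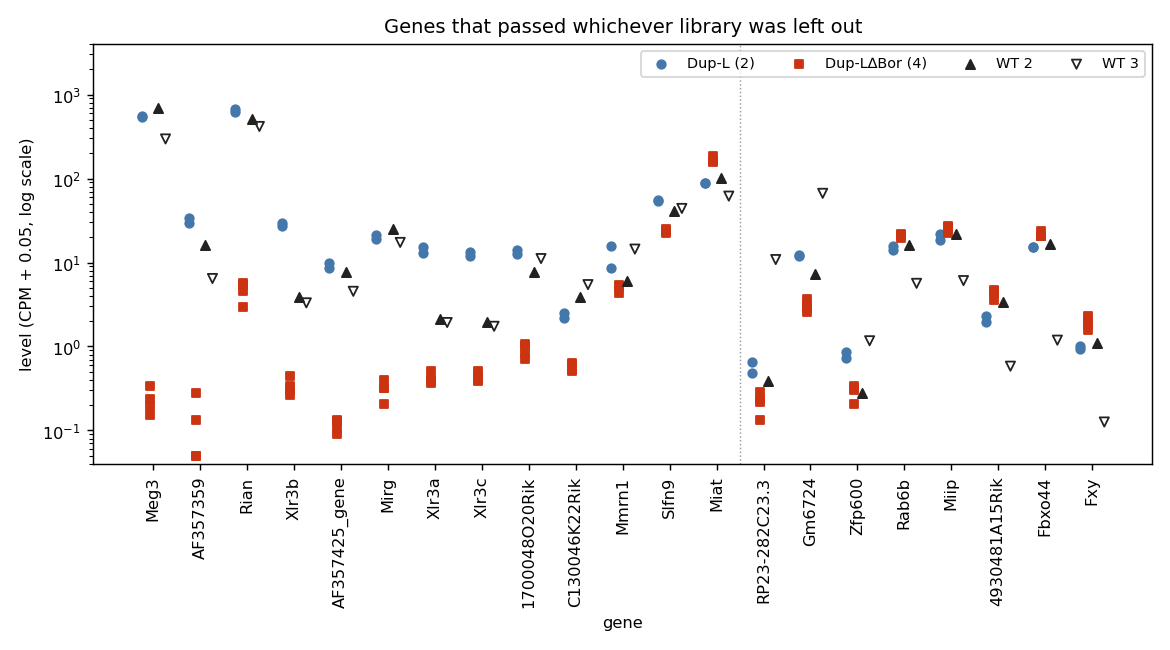
Levels (vertical axis, CPM + 0.05, log scale) of the genes that passed whichever Dup-L or Dup-L∆Bor library was left out, with 1 point per library. Left of the dotted line the difference between the mutant groups was the larger, as for Meg3 with 547 and 555 CPM in Dup-L against at most 0.292 CPM in Dup-L∆Bor, and right of it that of the WT pair. DQ267100 and ENSMUSG00000073777 are not drawn.

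For the other 9 of these stable calls the difference of the WT pair was the larger, and WT 3 lay at one end of the 8 libraries. Fbxo44, a subunit of a ubiquitin ligase, had 1.14 CPM in WT 3, 16.6 CPM in WT 2, 15.3 and 15.2 CPM in Dup-L against 20.4 to 23.4 CPM in Dup-L∆Bor. Its remainder of 4.34 (log2, adjusted p = 1.45e-05) held a mutant difference of 0.48 only. ENSMUSG00000073777 had 0 counts in WT 3, 133 CPM in WT 2 (at least 2320-fold above the floor of WT 3), 111 and 109 CPM in Dup-L against 80.1 to 86.3 CPM in Dup-L∆Bor. Its groups as measured differed by -0.41 (log2, adjusted p = 0.0578).

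Rab6b, a vesicle trafficking GTPase, and Miip, an inhibitor of cell migration, followed suit, at 5.60 and 6.04 CPM in WT 3 and between 14.0 and 27.2 CPM in WT 2 and all 6 mutant libraries. Among the largest remainders, Rhbdl2, Fbxo2, 4930481A15Rik and Fxy, a symbol also used for Mid1, were likewise lowest in WT 3 (0.0762 to 0.533 CPM). In the other direction Gm6724 (66.6 CPM in WT 3, at most 12.3 CPM in the other 7) and RP23-282C23.3 (10.8 against at most 0.600 CPM) were highest in WT 3. Zfp600, a zinc finger gene with close copies, was highest in WT 3 too, at 1.12 CPM against 0.159 to 0.818 CPM. The entry Mid1, unlike Fxy, was not low in WT 3, with 107 CPM there and 88.3 CPM in WT 2. It had 39.9 and 30.2 CPM in Dup-L against 127 to 162 CPM in Dup-L∆Bor. Its remainder was 1.80 (log2, SE 0.34, adjusted p = 0.0365), and 1.46 with GC and length offsets, where the call was lost (adjusted p = 0.148).

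Limb patterning and growth genes were mostly without a call after subtraction. Of 17 genes of the BMP and Msx list, 7 rose and 7 fell as measured, beside 24.6% and 24.7% of all genes. Bmp7, a bone morphogenetic protein of the limb margin, was the single member called after subtraction, beside 1.39% of all genes. It had 103 and 93.0 CPM in Dup-L against 285, 324, 320 and 279 CPM in Dup-L∆Bor, and 135 and 216 CPM in the WT pair. Its remainder was 0.94 (log2, SE 0.19, adjusted p = 0.0371), and 0.58 with GC and length offsets, where the call was lost (adjusted p = 0.0715).

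Of the 10 genes of the distal limb Hox list, 7 fell and 1 rose as measured, beside 24.7% and 24.6% of all genes. After subtraction 2 were higher, beside 1.05%. These 2, Hoxd9 and Hoxa9, pattern the proximal limb in spite of the name of the list. They fell as measured, by 0.38 and 0.27 on the log2 scale. WT 3 was below WT 2 by 1.36 and 0.98, and their remainders were 0.98 and 0.71 (adjusted p = 0.0451 and 0.0365). With offsets Hoxd9 was at 0.26 (adjusted p = 0.549). Gm13152 was the third gene called in opposite directions, named here after its values were seen (log2 -1.33 as measured and 2.39 after subtraction). With offsets Gm13152 was at 2.98 and lost the call (adjusted p = 0.0673). Hoxa11, a gene of the forearm and shank, fell as measured from 52.2 and 51.8 CPM to between 16.8 and 27.9 CPM (log2 -1.17), and -0.15 was left (SE 0.33). With WT 1 minus WT 2 or WT 3 minus WT 4, -1.20 or -0.83 was left for Hoxa11, and with WT 4 minus WT 2, -0.49.

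Its antisense transcript Hoxa11as moved the other way, from 0.245 and 0.163 CPM to between 2.10 and 3.24 CPM, with 0.897 and 1.09 CPM in WT 2 and WT 3. The remainder was 3.29 (log2, SE 0.54, adjusted p = 0.0188). No source used here gives the strand setting of the counts, so reads of Hoxa11 and Hoxa11as cannot be told apart.

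Cartilage genes had the highest median remainder of the gene lists, a rank that did not hold with GC and length offsets. Of 20 tested, 3 rose and 1 fell as measured, beside 24.6% and 24.7% of all genes. Their median was 0.31 (log2), and the WT pair had a median of -0.89. After subtraction 19 of 20 were positive, and the median was 1.21 (0.90 with GC and length offsets), beside 0.03 over all genes. On the higher side 2 passed, beside 1.05% of all genes. Col9a1, a collagen chain of cartilage, had 246 and 267 CPM in Dup-L, 222 to 261 CPM in Dup-L∆Bor, 311 CPM in WT 2 and 135 CPM in WT 3. Its mutant groups overlapped, and its remainder of 1.08 (SE 0.20, adjusted p = 0.0277) was the WT pair's difference of -1.21 turned round. Comp, a cartilage matrix protein, had 2.23 and 1.90 CPM in Dup-L against 3.42 to 6.64 CPM in Dup-L∆Bor, with 5.20 and 1.58 CPM in the WT pair (remainder 3.07, SE 0.65, adjusted p = 0.0451).

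Col2a1, the main cartilage collagen and a target of Sox9, rose as measured from 349 and 357 CPM to between 566 and 970 CPM (log2 1.01, adjusted p = 0.0103). Its remainder of 1.82 (SE 0.49) missed the threshold (adjusted p = 0.0902), as did that of the proteoglycan gene Acan (1.80, SE 0.87, adjusted p = 0.247). When WT 4 minus WT 2, a pair that is low in Pitx1 on both sides, was subtracted instead, the median of the cartilage list was 0.25 and none of its genes passed in that edgeR fit, in which 616 of all genes did (3.49%).

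Genes of glycolysis and the hypoxia response rose in part as measured, and after subtraction their values were mostly positive with 1 call. These genes encode glucose transporters, glycolytic enzymes and factors induced through the hypoxia-inducible factor, which binds the ACGTG core. As measured 22 of 33 rose and 0 fell, beside 24.6% of all genes rising, and the median was 1.09 (log2). The WT pair had a median of -0.11. After subtraction 32 of 33 were positive, with a median of 1.12 (0.99 with GC and length offsets), beside 0.03 over all genes. A single gene, Gapdh, passed, beside 1.05% of all genes. In edgeR 0 of the 33 passed without Dup-L 1, Dup-L 2, R3 or R4, and 1 without R5.

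Gapdh, a glycolytic enzyme with many processed copies in the genome, had 498 and 483 CPM in Dup-L against 1930, 1690, 1670 and 1430 CPM in Dup-L∆Bor, and 946 and 1490 CPM in the WT pair. Its remainder was 1.12 (log2, SE 0.25, adjusted p = 0.0479). Pfkl, a phosphofructokinase, went from 120 and 113 CPM to 771, 465, 388 and 436 CPM (remainder 1.70, SE 0.46, adjusted p = 0.0909). Slc2a1, the glucose transporter GLUT1, went from 97.4 and 84.6 CPM to 496, 227, 193 and 247 CPM (remainder 1.58, SE 0.67, adjusted p = 0.198). These 3 genes did not overlap between the groups, as for 64.7% of all genes tested, and R2 was the highest library for each.

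Vegfa, a growth factor for vessels, had 109 and 113 CPM in Dup-L against 331, 181, 142 and 219 CPM in Dup-L∆Bor (remainder 1.65, SE 0.56, adjusted p = 0.135). Eno1, an enolase whose reads can be shared with near-identical copies, had 2.32 and 2.30 CPM and then 4.48 to 11.4 CPM (remainder 1.83, SE 0.65, adjusted p = 0.131). The list also holds Pkm and Pkm2, names of transcripts of 1 gene. The summed level of the list was 4400 and 4250 CPM in Dup-L against 13400, 8680, 7710 and 9000 CPM in Dup-L∆Bor R2 to R5, and 5460 and 6330 CPM in WT 2 and WT 3. The library R2 moved with this result: the median remainder was 1.64 with R2 as the single Dup-L∆Bor library, 0.78, 0.48 and 1.02 with R3, R4 and R5, and 0.78 for the 3 without R2, where 5 genes passed.

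**Figure D4:**
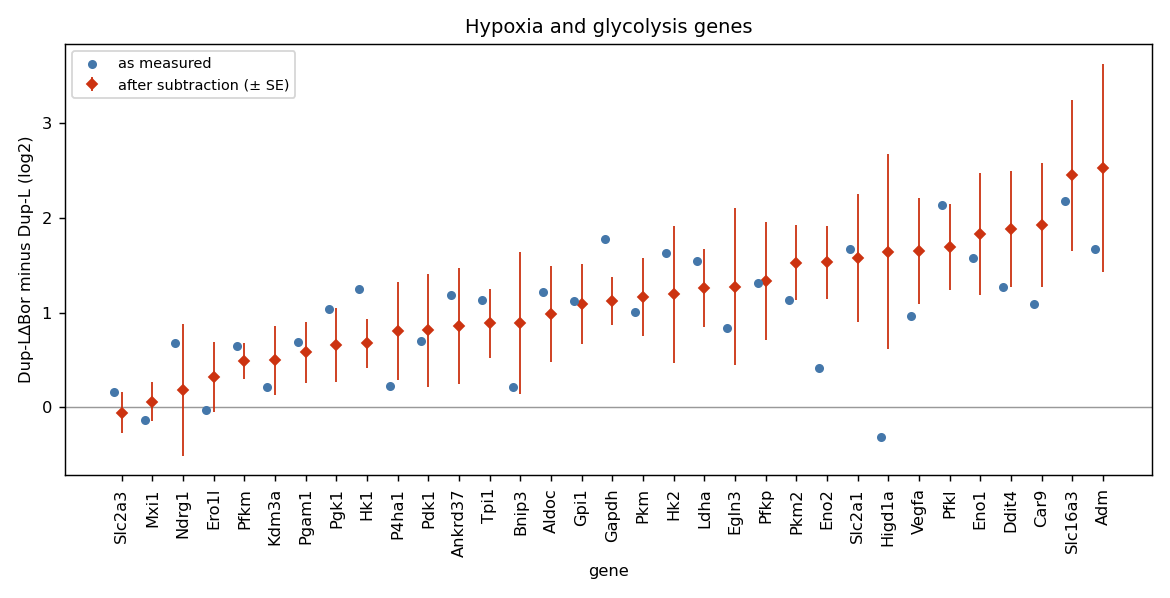
The 33 hypoxia and glycolysis genes (horizontal axis) with their Dup-L∆Bor minus Dup-L difference (vertical axis, log2) as measured (blue) and after subtraction (red, bars are ± SE). After subtraction 32 of 33 lie above 0, at a median of 1.12.

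Promoters of Gapdh and Slc2a1 are shown because they hold the ACGTG letters, while the windows of Pfkl, Vegfa and Eno1 hold none. Of the 33 genes, 29 had a RefSeq window, and 16 of these (55.2%) held ACGTG on either strand, beside 24.4% of all 11709 windows. The match is a description of the letters in this window. Gapdh is at chr6:125165724-125166023, minus strand, and Slc2a1 at chr4:119108495-119108794, plus strand, both of GRCm38.p6, with the letters (or their reverse complement) in capitals.
Gapdh: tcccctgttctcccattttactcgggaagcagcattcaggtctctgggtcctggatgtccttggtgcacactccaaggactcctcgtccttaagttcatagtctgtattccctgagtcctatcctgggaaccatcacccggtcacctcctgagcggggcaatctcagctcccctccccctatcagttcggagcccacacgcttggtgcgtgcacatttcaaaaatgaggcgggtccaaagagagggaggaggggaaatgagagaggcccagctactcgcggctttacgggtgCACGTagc
Slc2a1: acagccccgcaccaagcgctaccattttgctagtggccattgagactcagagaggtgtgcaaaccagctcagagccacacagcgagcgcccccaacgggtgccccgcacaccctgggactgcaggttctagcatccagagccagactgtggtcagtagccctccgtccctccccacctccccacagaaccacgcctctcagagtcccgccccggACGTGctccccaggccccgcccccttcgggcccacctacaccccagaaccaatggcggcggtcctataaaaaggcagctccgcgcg

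Of 23 genes with the largest remainders, 12 had a RefSeq window, and none of these held TAATCC, a site bound by PITX proteins, on either strand, beside 5.54% of all windows.

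Imprinted genes outside chromosome 12 gave 10 that rose and 5 that fell as measured among 36 tested, beside 24.6% and 24.7% of all genes, with 1 higher call after subtraction, beside 1.05%. Igf2, a fetal growth factor expressed from the paternal chromosome, had 2680 and 2670 CPM in Dup-L against 5600, 4460, 4530 and 3970 CPM in Dup-L∆Bor, with 3160 and 2440 CPM in the WT pair. It rose by 0.79 (log2) as measured and by 1.17 after subtraction (SE 0.24, adjusted p = 0.0389). With offsets it was at 0.74 and lost the call (adjusted p = 0.0629). Mir483, which lies within Igf2 and whose reads may be those of Igf2, had 1.23 and 1.03 CPM and then 1.64 to 3.42 CPM (remainder 3.19, SE 0.61, adjusted p = 0.031).

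Ribosomal protein and respiratory chain genes show what the subtraction removed. Of 49 cytosolic ribosomal protein genes, 27 rose and 7 fell as measured, beside 24.6% and 24.7% of all genes. Their median of 0.43 (log2) was matched by 0.47 in the WT pair, and -0.02 was left with 0 calls, beside 1.39% of all genes. Rps12 went from 644 and 563 CPM in Dup-L to between 1240 and 1490 CPM in Dup-L∆Bor, and from 772 to 1690 CPM in the WT pair (1.19 as measured, 0.06 left, SE 0.19). Rps18 had 1.08 as measured and 0.02 left (SE 0.21). Both were named because under 0.25 was left. The loss depended on the WT pair. With WT 1 minus WT 2, 1.09 was left for Rps12 and 0.84 for Rps18, and with WT 3 minus WT 4, 0.76 and 0.70. Each of these pairs lies within a single range of library numbers, so neither holds the difference in range. WT 4 minus WT 2 holds it but is low in Pitx1 on both sides, and it left 0.49 and 0.39.

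Of 50 nuclear genes of the respiratory chain, 28 rose and 9 fell as measured, against the same background, and the median went from 0.33 to -0.13. Ndufs8, a complex I subunit named by the same rule, had 1.02 (log2) as measured and 0.06 left. With WT 1 minus WT 2 it kept 0.78, with WT 3 minus WT 4 0.68, and with WT 4 minus WT 2 0.39. Uqcrc2, a subunit of complex III, was the 1 call of this list: 227 and 226 CPM in Dup-L, 165 to 190 CPM in Dup-L∆Bor, 161 and 210 CPM in the WT pair, a remainder of -0.72 (SE 0.15, adjusted p = 0.0451). With offsets it was at -0.38 and lost the call (adjusted p = 0.085). Replication-dependent histones, whose messages mostly lack a polyA tail, went from a median of 1.39 to 0.64 over 14 genes. The latter was 0.35 with GC and length offsets and 0.12 with limma on log2(FPKM + 1). Of the 14, 7 rose and 1 fell as measured, beside 24.6% and 24.7% of all genes, and 0 passed after subtraction, beside 1.39%.

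**Figure D5:**
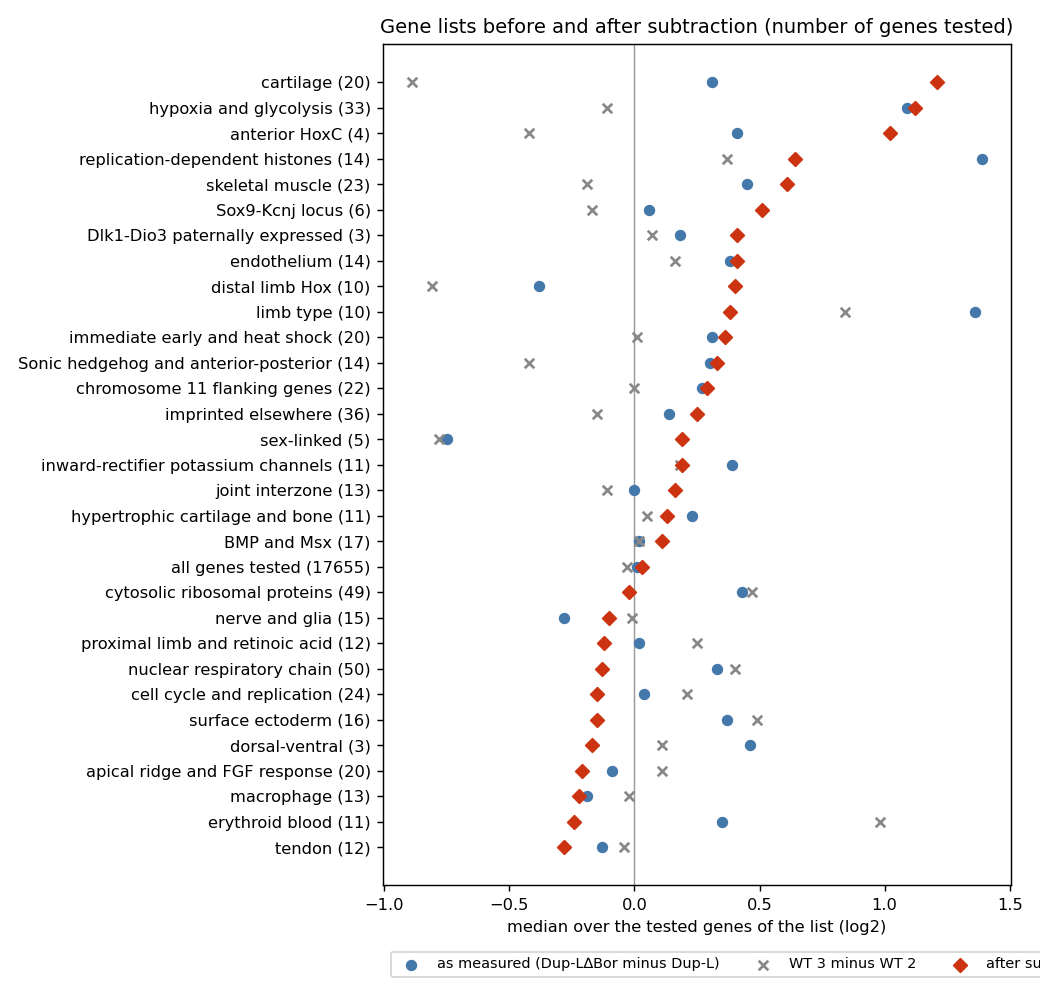
Median log2 difference of each gene list (horizontal axis) as measured, in the WT pair and after subtraction, with the number of genes tested in brackets and the lists ordered by the value after subtraction. Ribosomal proteins go from 0.43 to -0.02 and hypoxia and glycolysis genes stay at 1.12. The 3 tested maternal Dlk1-Dio3 genes (median -6.82) lie off this scale and are left out.

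Markers of other cell types gave 0 calls after subtraction, beside 1.39% of all genes. Skeletal muscle markers had 21 of 23 positive remainders with a median of 0.61 (log2), and their summed level was 816 and 1000 CPM in Dup-L against 762 to 1690 CPM in Dup-L∆Bor, which overlapped. Erythroid markers had a median of -0.24 over 11 genes, and a summed level of 1710 to 2420 CPM in Dup-L, 2160 to 3490 CPM in Dup-L∆Bor, 1800 CPM in WT 2 and 5050 CPM in WT 3. Endothelial markers rose in 9 of 14 genes as measured, beside 24.6% of all genes, and had a median of 0.41 after subtraction (0.06 with GC and length offsets), with summed levels of 356 and 371 CPM in Dup-L against 430 to 566 CPM in Dup-L∆Bor. Their part in the results above was not tested. Macrophage, nerve and surface ectoderm markers had median remainders of -0.22, -0.10 and -0.15.

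By chromosome, the calls after subtraction were spread over all autosomes and the X chromosome. Chromosome 17 had 21 calls among 788 genes (2.66%), chromosome 4 had 25 of 998 (2.51%) and the X chromosome 14 of 601 (2.33%). Chromosome 11, which holds the Sox9-Kcnj locus, had 12 of 1319 (0.91%), beside 1.39% of all genes.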

How the data were processed

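PolyA RNA libraries (TruSeq RNA V2, per the labels' protocols) were compared as counts per gene. The deposited count table holds raw counts for 34682 genes, and a second table holds FPKM values made by the authors. STAR, DESeq2, bedtools 2.17.0 and the build mm9 are named in the submitters' processing notes, with no role given. No source used here gives the read counter, the gene models or the strandedness that the authors used. Of 17 labelled samples, 2 fingertip samples are not analysed here, and 0 sample columns were left unused. The members and the gene lists were chosen with earlier results of these data known.

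The edgeR package (4.0.16, in R 4.3.3) was used with TMM factors, its filterByExpr filter and the robust two-sided quasi-likelihood F-test in 1 fit of 15 libraries with 9 coefficients and 6 residual degrees of freedom. Each WT library had its own coefficient, so the WT pair has a value and no test. Adjusted p-values are Benjamini-Hochberg values over 17655 genes, and "rose", "fell" and "called" mean an adjusted p under 0.05. A remainder is the log2 fold change left after subtraction. Alternatives used DESeq2 1.42.0, limma 3.58.1 on log2(FPKM + pseudocount), other scaling and filters, omitted libraries, other WT pairs, and GC and length offsets. Medians of lists for single libraries and for each alternative were added after seeing the data. GC content, length and chromosomes came by symbol from a GRCm38 annotation (91.5% of genes tested), and gene names are as deposited.

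On simulated data of 17221 genes, changes of 1, 2 and 3 (log2) were recovered in 51.5%, 89.6% and 98.5% of cases after subtraction, with 5 false calls. Apart from changes planted in genes of at least 1 CPM, each gene had the same mean share in every library. Its spread was set by its level only. The simulation thus had no difference between WT libraries and no GC trend, so these rates do not carry over to the real counts. Named genes were those of the locus and limb type lists, the 12 largest remainders in each direction among called genes of at least 1 CPM whose library combinations all lay on 1 side of the WT difference, up to 4 called members of each list described (or up to 2 well-known ones where none was called), and 6 list genes that were called as measured and had under 0.25 left. Results for 2 genes that this rule names are not reported here. Pfkl, Vegfa, Slc2a1, Eno1, Dlk1, Cog1, Xlr4b, DQ267100, Mid1 and the stable genes below these ranks were added after their values were seen.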

Additional observations from a re-analysis of the deposited data

Results flagged for a closer look

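The flagged genes below are given as values. Within Dup-L∆Bor, 1 library lay far from the other 3 for 3 of 36 named genes examined, and chance puts about 1 in 20 groups in this class. Fbxo44 was 23.4 CPM in R2 and 20.4 to 20.8 CPM in the others. Hoxa11as was 3.24 CPM in R5 and 2.10 to 2.25 CPM in the others. Gm20605 was 2.28 CPM in R2 and 1.69 to 1.78 CPM in the others.

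For 23 of the named genes of the locus, the limb type list and the largest remainders, an edgeR test of the difference itself passed. The remainder of Dup-L∆Bor against Dup-L was set against the effect of heterozygous ∆Bor against WT 1, where WT 1 differs from heterozygous ∆Bor in Xist. Over all genes 9.41% passed this test. Most of the 23 were named for a large remainder, which is part of the tested difference. Their passing was therefore largely fixed by that choice, and the values are a description. Other named genes that passed this test, among them Bmp7, Igf2 and Gapdh, are not listed here. The differences (log2) on the positive side were 1.06 for 2610035D17Rik, 15.77 for ENSMUSG00000073777, 4.34 for Fxy, 7.57 for Fbxo44, 5.35 for Rhbdl2 and 5.33 for 4930481A15Rik. They were 3.18 for AK019053_gene, 4.89 for Hoxa11as, 4.78 for Fbxo2, 3.23 for Mir483, 3.76 for Gm20605 and 3.84 for Comp.

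On the negative side they were -10.78 for Meg3, -8.32 for AF357359, -7.31 for Rian, -7.05 for AF357425_gene and -6.10 for Mirg in the imprinted cluster of chromosome 12. The Xlr3 genes had -5.15 (Xlr3b), -4.26 (Xlr3a) and -3.81 (Xlr3c), and 1700048O20Rik had -4.72. RP23-282C23.3 and Gm6724, high in WT 3, had -12.34 and -9.05.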

How the results depend on the processing

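Kcnj2 kept its direction and its side of the threshold under every alternative, from 0.63 to 1.30 (log2, adjusted p 0.0607 to 0.319) after subtraction, from 0.78 to 1.49 as measured, and from 0.22 to 1.03 for the difference from the boundary deletion alone. The count after subtraction (246) was 1066 with DESeq2, 440 without a count filter, 136 with GC and length offsets, 47 and 50 with limma on FPKM (pseudocounts 1 and 0.1), 1895 with the 8 libraries alone, and 30 to 695 with 1 library left out. With the differences of WT 1 and WT 2, WT 3 and WT 4, or WT 4 and WT 2 subtracted it was 3501, 1935 and 616, and 92 genes passed with each pair. The count as measured (8698) was 5574 to 8971 with 1 library left out. The test of the difference from ∆Bor alone (1661) gave 2605 with DESeq2, 580 with offsets, 946 and 824 with limma on FPKM (pseudocounts 1 and 0.1), and 201 to 2831 with 1 library left out.

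Signs turned for the following genes. With WT 1 minus WT 2 they were -0.19 for Map2k6, -0.13 for Tbx5, -0.35 for Hoxc9, -0.43 for Hoxc11, -0.63 for ENSMUSG00000073777, -0.21 for Hoxa9 and 9.72 for Mmrn1, and with WT 3 minus WT 4 -0.19 for Map2k6, -0.00457 for Tbx5 and -0.11 for Hoxc9. With WT 4 minus WT 2 they were -0.83 for BC006965, 2.46 for Isl1, -0.62 for Tbx5, 2.11 for Hoxc10 and 0.0491 for Hoxc13. Offsets gave -0.0667 for Hoxc11 and -0.164 for Ndufs8, limma on log2(FPKM + 1) gave -0.0731 for Hoxc11, and the 8 libraries alone gave -0.0199 for Rps18. With 1 library left out Hoxc10 ran from -0.342 to 0.097, Rps12 from -0.0354 to 0.158, Rps18 from -0.0707 to 0.106 and Ndufs8 from -0.0166 to 0.141. The cause was not tested.

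No paired analysis was possible because the replicate numbers of the Dup-L∆Bor columns match no label and share only 1 number with the Dup-L columns. Depth limits genes such as Kcnj16, and the single WT libraries are assumed to vary like the other groups.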

Other observations

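Several genes that stood apart in WT 3 had the same side in the libraries with the boundary deletion alone. Fbxo44, 1.14 CPM in WT 3, was 1.38 and 1.54 CPM in heterozygous ∆Bor and 1.38 CPM in homozygous ∆Bor, while WT 1, WT 2 and WT 4 had 13.8, 16.6 and 18.4 CPM. Rab6b was 5.60 CPM in WT 3, 3.89 and 4.55 CPM in heterozygous ∆Bor and 2.70 CPM in homozygous ∆Bor, against 14.7 to 20.9 CPM in the other WT libraries. RP23-282C23.3 was 10.8 CPM in WT 3, 30.0 and 21.3 CPM in heterozygous ∆Bor and 29.1 CPM in homozygous ∆Bor, and at most 0.483 CPM in the other WT libraries.

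Mmrn1, which encodes a protein of platelets and endothelium, had 0 counts in 3 libraries that lie outside the comparison, WT 1 and both Dup-C libraries. It had 5.99 to 14.4 CPM in the other WT libraries and 4.34 to 5.41 CPM in Dup-L∆Bor.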
